A study of Mus musculus with 9 samples.

Results

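10 genes that are known as markers of injured kidney tubules were examined in the renal cortex of db/m control mice and of db/db mice with and without rosiglitazone. Havcr1, Lcn2, Spp1, Vcam1, Clu, Krt8, Krt18, Krt20, Cd44 and Sox9 were taken by symbol from the protein-coding transcripts. The level of a gene was the sum of the FPKM of its transcripts, the fragments counted on a transcript divided by its length and by how many fragments of the library were mapped. The 10 genes were found among 21950 genes. Testing required at least 0.1 FPKM on average across the 9 libraries. This was reached by 14537 genes, and these included each of the 10 markers.

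RNA was sequenced from the renal cortex of 9 male mice after removal of ribosomal RNA, with 1 library per mouse and 3 mice per group. The mice were of the C57BL/KsJ strain and carried the db mutation of the leptin receptor gene. Control (db/m) mice were heterozygous for db and received vehicle. The dbdb mice were homozygous for db, a model of obesity and type 2 diabetes, and received vehicle. The dbR mice were homozygous for db and received 20 mg/kg/day of rosiglitazone, which activates the nuclear receptor PPARγ. Vehicle and drug were given by gavage for 8 weeks, from 7 to 15 weeks of age. The comparison of dbdb with control concerns the homozygous mutation, and that of dbR with dbdb concerns the drug. In dbR vs. control the genotype and the drug cannot be told apart.

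The proximal tubule recovers most of what the glomerulus filters, and its cells are easily damaged. Damaged tubular cells are known to place Kim-1, the product of Havcr1, on their apical membrane and to release lipocalin-2 (Lcn2), osteopontin (Spp1) and clusterin (Clu). They also make more of simple-epithelial keratins and of adhesion molecules, and Sox9 is switched on in cells that repair the tubule. Several of these genes are active in undamaged tissue as well, in the distal nephron, in endothelium or in leukocytes.

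Averaged over the 9 libraries, Spp1 had the highest level of the 10 genes at 779 FPKM, followed by Clu at 91.9, Krt8 at 59.6 and Krt18 at 7.80 FPKM. Vcam1 followed at 3.48 FPKM, and Lcn2 (0.892), Cd44 (0.745), Sox9 (0.409), Havcr1 (0.322) and Krt20 (0.158) lay under 1 FPKM. Spp1 was above 99.5% of the tested genes and Krt20 above 3.53%. Some neighbours in this order were not separated in each group. In control mice Clu (54.6 ± 3.46 FPKM, mean ± SD, n = 3) and Krt8 (56.1 ± 6.46) overlapped, while in the dbdb and dbR groups the lowest Clu value was above the highest Krt8 value. Cd44 (1.05 ± 0.136) was above Lcn2 (0.343 ± 0.184) in control mice, and in dbdb mice it was below Lcn2 (0.420 ± 0.141 and 0.999 ± 0.316). The smallest steps between low FPKM values corresponded to an estimated 29.2, 27.45 and 29.55 M fragments in the control, 27.55, 28.1 and 28.55 M in the dbdb and 32.8, 30.25 and 26.5 M in the dbR libraries. At that depth the markers of low level rested on few fragments, an estimated 2 to 11 per library for Krt20, 2 to 37 for Havcr1 and 4 to 35 for Lcn2. Sox9 rested on an estimated 21 to 97 fragments and Cd44 on 36 to 134. Defining markers of the labelled tissue were present, since the summed level of 7 proximal tubule markers, each tested, lay between 4482.5 and 6046 FPKM in the 9 libraries. Miox had the highest mean over the 9 libraries, while Slc27a2 was above it in the control mean and Slc34a1 in the dbdb mean.

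In dbdb vs. control, 6 of the 10 markers differed at an adjusted p under 0.05 from limma. Spp1, Clu, Lcn2 and Krt18 were higher and Cd44 and Havcr1 were lower in dbdb mice. Of the 14537 tested genes, 26.4% were called, 13.1% higher and 13.4% lower. The 3 dbdb libraries did not overlap with the 3 control libraries for these 6 markers, and for 42.4% of the tested genes. The median log2 fold change of the 10 markers was 0.27, beside -0.0030 over the tested genes. When genes of the mitochondrial genome were left out and the rest was scaled to the same sum, that median over the tested genes moved to 0.15. The values of the 10 markers moved up as well, among them Krt8 from 0.16 to 0.32 and Krt20 from 0.37 to 0.47.

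In dbR vs. dbdb, 0 of the 10 markers were called by limma, where 0.743% of the tested genes were called, 0.564% higher and 0.179% lower. An unadjusted p under 0.05 from limma was reached by 3 markers, Spp1 lower and Cd44 and Vcam1 higher in dbR mice. None of the 3 passed after adjustment. The share of the tested genes at that threshold is not given. Counts at an unadjusted p, here and for the lists and transcripts below, are therefore not set against all genes. The libraries did not overlap for the same 3 markers, and for 22.7% of the tested genes. The medians were 0.12 over the markers and -0.0022 over the tested genes, and the latter was -0.063 without mitochondrial genes. The number of tested genes called was 108, and it rested on single libraries: it was 2 without dbR replicate 2, 10 without dbR replicate 3 and 70 without dbR replicate 1. It was 31 without dbdb replicate 2 and 36 without dbdb replicate 1. In each of the 9 fits without 1 library, 0 markers were called in dbR vs. dbdb.

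In dbR vs. control, 5 of the 10 markers were called by limma, with Spp1, Clu, Lcn2 and Krt18 higher and Havcr1 lower in dbR mice. Of the tested genes, 24.1% were called, 12.3% higher and 11.8% lower. The libraries did not overlap for 7 markers, the 5 called, Vcam1 and Cd44, and for 41.9% of the tested genes. The medians were 0.61 over the markers and -0.0014 over the tested genes, and the latter was 0.089 without mitochondrial genes. The shares of tested genes called in the 3 comparisons also stand as background beside the counts of the other gene lists and cell type markers. The comparisons share libraries, so the values of a marker in them are not independent. Fold changes are differences of log2(FPKM + 0.1), and the added 0.1 draws those of genes of low level towards 0.

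**Figure D1:**
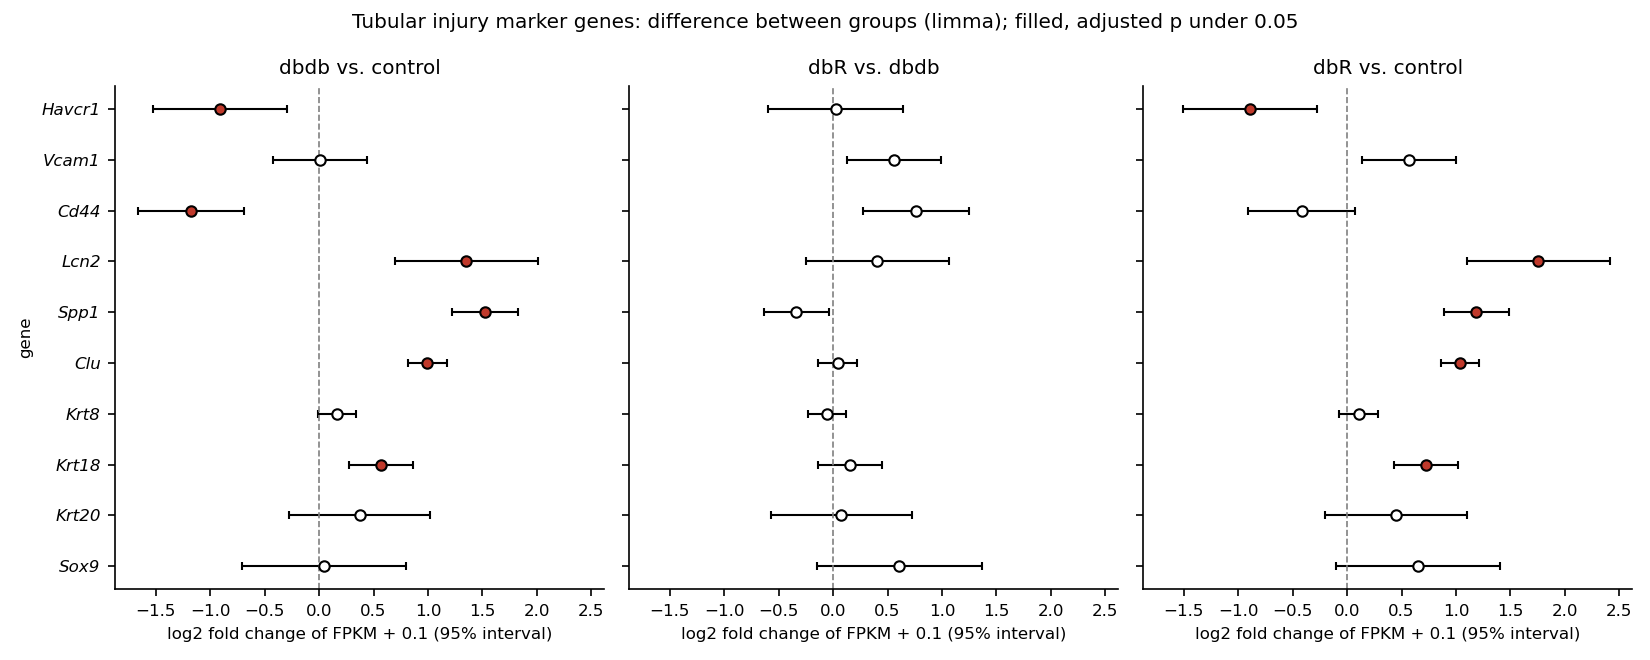
Log2 fold change of FPKM + 0.1 of the 10 markers in dbdb vs. control, dbR vs. dbdb and dbR vs. control, with 95% intervals from limma; filled points have an adjusted p under 0.05. 6, 0 and 5 points are filled, and the dbR vs. dbdb values lie between -0.34 for Spp1 and 0.76 for Cd44.

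Among the markers on the cell surface, Havcr1 (ENSMUSG00000040405, chr11:46735080-46779578, plus strand of GRCm38) encodes Kim-1, a receptor for the phosphatidylserine of dying cells. Its level was 0.445, 0.386 and 0.713 FPKM in control replicates 1, 2 and 3, 0.233, 0.131 and 0.320 in the dbdb replicates and 0.204, 0.227 and 0.239 in the dbR replicates. Each dbdb and each dbR library lay below each control library, and the 3 dbR values lay inside the dbdb range. An estimated 19, 19 and 37 fragments stood behind the control values, 2, 6 and 16 behind the dbdb values and 9, 12 and 11 behind the dbR values. Havcr1 was 1.88-fold lower in dbdb than in control mice, a log2 fold change of -0.91 ± 0.28 (SE; adjusted p = 0.0352 from limma). Between dbR and control mice it was -0.89 ± 0.28 (adjusted p = 0.0415 from limma). Its 95% interval in dbR vs. dbdb was -0.60 to 0.64, and the sign turned without dbdb replicate 2 (-0.21) or dbR replicate 3 (-0.013). The value of 0.022 was 1.03 for the most abundant transcript (adjusted p = 0.511 from limma). With estimated fragments scaled to depth it was 0.49 (adjusted p = 0.592 from limma).

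The Havcr1 calls were lost in several alternatives, while the log2 fold change stayed under 0 in each. In dbdb vs. control the call was lost without control replicate 1 (log2 fold change -0.98, adjusted p = 0.0597 from limma), control replicate 3 (-0.69, adjusted p = 0.128), dbdb replicate 1 (-0.94, adjusted p = 0.0669) and dbdb replicate 2 (-0.68, adjusted p = 0.115). It was also lost with the 6 libraries of the comparison alone (-0.91, adjusted p = 0.0668), without mitochondrial genes (-0.79, adjusted p = 0.0522) and for the most abundant transcript (-1.08, adjusted p = 0.297). The alternatives gave -1.51 to -0.30 with adjusted p of 0.0222 to 0.297. For dbR vs. control the call was lost without control replicate 1 (-0.96, adjusted p = 0.0682 from limma) or 3 (-0.67, adjusted p = 0.147), dbdb replicate 1 (-0.89, adjusted p = 0.0531), and dbR replicate 1 (-0.85, adjusted p = 0.107), 2 (-0.90, adjusted p = 0.0905) or 3 (-0.93, adjusted p = 0.0804). It was also lost with a pseudocount of 0.01 (-1.12, adjusted p = 0.0535), without mitochondrial genes (-0.81, adjusted p = 0.0573), for the most abundant transcript (-0.057, adjusted p = 0.963) and with estimated fragments scaled to depth (-1.02, adjusted p = 0.108). The alternatives gave -1.12 to -0.057 with adjusted p of 0.0283 to 0.963. Cufflinks divided the Havcr1 reads among 4 transcripts unevenly over the libraries. In dbdb replicate 1 the whole value came from a transcript of 565 bases, and in dbdb replicate 2 nearly the whole value came from a transcript of 1892 bases that was under 0.01 FPKM in the other 8 libraries. The Tim family, to which Kim-1 belongs, has 3 other genes in the files. Timd2, which encodes a ferritin receptor, was 61.7 ± 5.17 FPKM in control mice, 30.5 ± 2.64 in the dbdb group and 44.6 ± 9.53 in the dbR group (mean ± SD, n = 3), with a log2 fold change of -1.01 ± 0.14 in dbdb vs. control (adjusted p = 0.000843 from limma). Havcr2 was not called in the 3 comparisons, and Timd4 was listed at 0 in each library.

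Cd44 (ENSMUSG00000005087, chr2:102811141-102901665, minus strand) encodes a receptor for hyaluronan and osteopontin that is carried by leukocytes and by injured tubular cells. Its level was 1.21, 0.999 and 0.951 FPKM in the control, 0.275, 0.426 and 0.558 in the dbdb and 0.677, 0.903 and 0.711 in the dbR libraries. Each dbdb library was below each dbR library, and each dbR library was below each control library. Cd44 was 2.27-fold lower in dbdb than in control mice (log2 fold change -1.18 ± 0.22, adjusted p = 0.00384 from limma), and this call was made in the 21 alternatives that tested Cd44. Between dbR and dbdb mice the log2 fold change was 0.76 ± 0.22 with an unadjusted p of 0.00611 and an adjusted p of 0.124 from limma, and it was not called in the alternatives. Its value in dbR vs. control was -0.42 ± 0.22 (adjusted p = 0.198 from limma). The genes most like Cd44 over the 9 libraries were Fbln7 (0.12), Plcb2 (0.13) and Tyrobp (0.13), where the number is the mean absolute difference of the log2 values after each gene was centred on its mean. The same measure of Cd44 against its own mean was 0.44. Tyrobp encodes an adaptor of receptors on myeloid cells.

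Macrophage and lymphocyte markers were measured beside Cd44. Of 8 macrophage markers, 0 were called higher and 4 lower in dbdb vs. control (Csf1r, Lyz2, Adgre1 and Cd68), beside 13.4% of the tested genes called lower, 0 in dbR vs. dbdb, and 2 lower in dbR vs. control, of which Csf1r was called in each fit without 1 library. In dbR vs. dbdb the 8 log2 fold changes were above 0, and 5 had an unadjusted p under 0.05 from limma. No share of the tested genes at that threshold stands beside this count. Their summed level was 67.9, 55.3 and 61.7 FPKM in the control, 28.8, 33.3 and 45.0 in the dbdb and 39.1, 45.2 and 50.3 in the dbR libraries, with C1qa the highest on the mean of the 9 libraries and no marker at 0. Lyz2 was above C1qa in control replicate 1, and C1qb was level with C1qa in the dbR group (12.3 ± 1.80 and 12.3 ± 2.68 FPKM, mean ± SD, n = 3). The dbdb and the control sums did not overlap, and the dbdb and the dbR sums did. Csf1r, the receptor that macrophages need to survive, fell by 1.37 ± 0.14 on the log2 scale in dbdb vs. control (adjusted p = 0.000176 from limma). Of 9 lymphocyte markers 7 were tested, and 3 were called lower in dbdb vs. control, Ptprc, Cd4 and Cd79a. Cd4 and Cd79a passed the 0.1 FPKM filter through the control group, where they were high, so their calls add nothing to that of Ptprc. For dbR vs. dbdb 0 were called by limma, with 1 at an unadjusted p under 0.05. Ptprc, which marks leukocytes in general and was the highest of them in each library, had 4.49, 3.87 and 3.68 FPKM in the control, 1.25, 1.26 and 1.97 in the dbdb and 1.88, 2.48 and 1.93 in the dbR libraries. The summed lymphocyte markers were 7.88, 6.41 and 5.40 FPKM in the control, 1.79, 2.24 and 3.16 in the dbdb and 2.74, 4.07 and 2.94 in the dbR libraries. Fewer cells of a type and less RNA per cell cannot be told apart in bulk tissue, and the part of leukocytes in the Cd44 values was not tested.

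Vcam1 (ENSMUSG00000027962, chr3:116109949-116129688, minus strand) encodes an adhesion molecule that binds leukocyte integrins and is made by endothelium and by proximal tubule cells that have not repaired. Its level was 3.48, 3.00 and 2.43 FPKM in the control, 2.91, 2.59 and 3.42 in the dbdb and 3.98, 5.90 and 3.61 in the dbR libraries. The control and dbdb values overlapped, and each dbR library was above both groups, with dbR replicate 2 the highest. The log2 fold change was 0.56 ± 0.19 in dbR vs. dbdb (unadjusted p = 0.0166, adjusted p = 0.180 from limma) and 0.57 ± 0.19 in dbR vs. control (adjusted p = 0.0592 from limma), so neither was called. Without dbR replicate 2, the highest library, these were 0.35 (adjusted p = 0.459 from limma) and 0.36 (adjusted p = 0.177). Without dbR replicate 3 the adjusted p from limma in dbR vs. control was 0.0428, and it was 0.0467 with scaling to the 75th percentile and 0.0404 without mitochondrial genes, where the alternatives gave 0.0404 to 0.359. Its 95% interval in dbdb vs. control was -0.42 to 0.44, and the sign turned under quantile normalization and in the fits without control replicate 3 (-0.12) or dbdb replicate 3 (-0.093). A transcript of 749 bases gave 1.11 FPKM of the dbdb replicate 1 value, 0.192 of dbR replicate 1 and 1.12 of dbR replicate 2, and was under 0.01 FPKM in the other 6 libraries. The main transcript of 3469 bases had 3.20, 2.53 and 1.95 FPKM in the control, 1.43, 2.08 and 2.81 in the dbdb and 2.97, 4.16 and 2.79 in the dbR libraries, so for this transcript the dbR values overlapped both other groups.

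Markers of endothelium, parietal epithelium and fibroblasts were measured beside Vcam1. The summed level of 6 endothelial markers, of which Emcn was the highest in each library and none was at 0, was 116, 128 and 117 FPKM in the control, 97.5, 97.8 and 90.2 in the dbdb and 125, 145 and 129.8 in the dbR libraries. Each dbdb library was below each library of the other groups. The endothelial list had 4 genes called lower in dbdb vs. control. Of these Emcn and Pecam1 were called in each fit without 1 library, and Pecam1 lost its call for its most abundant transcript. The other 2 of the 6, Tek and Flt1, had log2 fold changes above 0 in dbdb vs. control and were not called. For dbR vs. dbdb 3 of the 6 were called higher, and 0 of these were called in each fit without 1 library. Emcn, endomucin of the vessel wall, was 36.0 ± 1.16 FPKM in control mice, 23.6 ± 0.751 in the dbdb group and 37.4 ± 4.73 in the dbR group (mean ± SD, n = 3), with a log2 fold change of 0.66 ± 0.084 in dbR vs. dbdb (adjusted p = 0.0205 from limma), and its call was lost without dbdb replicate 2 (adjusted p = 0.0516), without dbR replicate 2 (adjusted p = 0.0689) and without dbR replicate 3 (adjusted p = 0.0602) and with no trend of the variance. The sum of 4 markers of parietal epithelium, with Cldn1 the highest in each library and none at 0, was 19.5, 20.8 and 20.1 FPKM in the control, 20.5, 22.9 and 21.0 in the dbdb and 27.1, 26.3 and 25.6 in the dbR libraries, and each dbR library was above both other groups. The sum of 6 markers of fibroblasts and pericytes, with Dcn the highest in each library and none at 0, was 37.7, 24.1 and 26.2 FPKM in the control, 19.5, 20.6 and 29.0 in the dbdb and 32.8, 42.8 and 33.1 in the dbR libraries. It was higher in each dbR than in each dbdb library, and the control values overlapped with both. Of the 6, Col3a1 was called lower in dbdb vs. control, Pdgfrb higher in dbR vs. dbdb, and Pdgfra and Pdgfrb higher in dbR vs. control. The Col3a1 and Pdgfra calls were made in each fit without 1 library, and the Pdgfrb calls were not. Of the 4 parietal markers 1 was called higher in dbdb vs. control, 0 in dbR vs. dbdb and 3 higher in dbR vs. control. Of these calls that of Cldn1 was made in each such fit. The part of these cells in the Vcam1 values was not tested.

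**Figure D2:**
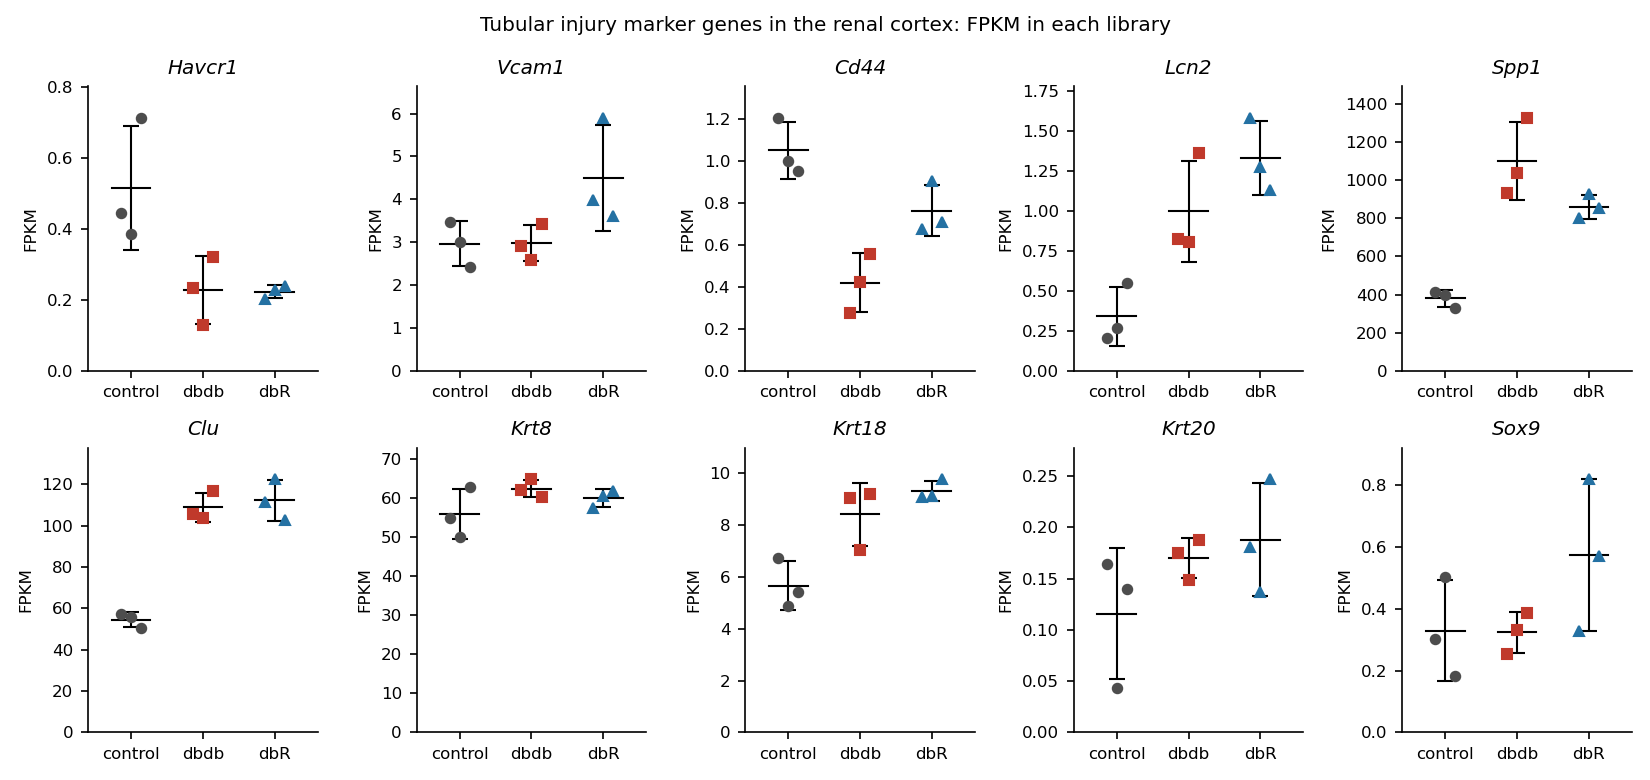
FPKM of the 10 markers in each library of the control, dbdb and dbR groups, with the mean and SD of 3 libraries as bars; each axis starts at 0. The Spp1, Clu, Lcn2 and Krt18 values of the dbdb and dbR libraries lie above the control values, and those of Havcr1 and Cd44 lie below them.

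Among the secreted markers, Spp1 (ENSMUSG00000029304, chr5:104435118-104441050, plus strand) encodes osteopontin, a phosphoprotein that binds integrins and CD44. Its level was 411, 395 and 331 FPKM in the control, 932, 1035 and 1326 in the dbdb and 802, 927 and 851 in the dbR libraries. Each dbdb library was above each control library, and each dbR library lay between the 2 groups. Spp1 was 2.88-fold higher in dbdb than in control mice (log2 fold change 1.52 ± 0.13, adjusted p = 6.42e-05 from limma) and 2.27-fold higher in dbR than in control mice (1.19 ± 0.13, adjusted p = 0.000284 from limma). Its log2 fold change in dbR vs. dbdb was -0.34 ± 0.13 with an unadjusted p of 0.0303, and it was not called (adjusted p = 0.232 from limma). Without dbdb replicate 3, the highest library, it was -0.19 (adjusted p = 0.440 from limma). Between 94.3% and 96.1% of the Spp1 level came from a transcript of 1410 bases. The genes most like Spp1 were Rhbg (0.12), Map3k6 (0.12) and Slc8a1 (0.13), beside 0.60 for Spp1 against its own mean. Rhbg encodes an ammonia transporter of the distal nephron and collecting duct.

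Clu (ENSMUSG00000022037, chr14:65968483-65981547, plus strand) encodes clusterin, a secreted chaperone. Its level was 57.1, 56.0 and 50.6 FPKM in the control, 106, 104 and 117 in the dbdb and 112, 122 and 103 in the dbR libraries. The dbdb and dbR values overlapped, and both groups were above the control group without overlap. Clu was 1.99-fold higher in dbdb (log2 fold change 0.99 ± 0.080, adjusted p = 3.92e-05 from limma) and 2.05-fold higher in dbR than in control mice (1.04 ± 0.080, adjusted p = 3.64e-05 from limma). The 95% interval of its log2 fold change in dbR vs. dbdb was -0.14 to 0.22, and the sign turned without dbR replicate 2 (-0.022). The calls of Spp1 and Clu against control were made in each of the 22 alternatives. Among the genes most like Clu were Slc12a3 (0.051) and Cadps2 (0.062), beside 0.45 for Clu against its own mean. Slc12a3 encodes the sodium-chloride cotransporter of the distal convoluted tubule.

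Markers of the distal nephron were measured beside Spp1 and Clu. Each of 4 distal convoluted tubule markers (Calb1, Trpm6, Slc12a3 and Pvalb) was called higher in the dbdb and in the dbR group against control, and 0 were called in dbR vs. dbdb, where 2 had an unadjusted p under 0.05 from limma. Their summed level was 217, 219 and 196 FPKM in the control, 445, 476 and 552 in the dbdb and 437, 499 and 439 in the dbR libraries, with no marker at 0. The highest on the mean of the 9 libraries, Slc12a3, was 106 ± 6.15 FPKM in control and 209 ± 11.9 in dbdb mice (mean ± SD, n = 3). Its log2 fold change was 0.98 ± 0.073 in dbdb vs. control (adjusted p = 2.61e-05 from limma). Each of 5 intercalated cell markers was likewise called higher in both comparisons with control, and their sum was 42.8, 42.0 and 39.9 FPKM in the control, 66.1, 65.6 and 73.2 in the dbdb and 74.9, 74.6 and 70.4 in the dbR libraries. Slc26a4 had the highest mean over the 9 libraries, though not in the dbR group, where Atp6v1g3 was above it (22.0 ± 1.55 and 22.5 ± 0.960 FPKM), and none was at 0. Atp6v1g3 was the 1 intercalated cell marker called higher in dbR vs. dbdb (adjusted p = 0.0251 from limma), a call lost without dbdb replicate 1 (adjusted p = 0.0564), without dbdb replicate 2 (adjusted p = 0.0715), without dbR replicate 2 (adjusted p = 0.1198) and without dbR replicate 3 (adjusted p = 0.0602). Of 7 principal cell markers, 4 were called higher (Aqp2, Hsd11b2, Scnn1g and Avpr2) and 1 lower (Aqp4) in dbdb vs. control. Against control the dbR group had 5 called higher and 1 lower, of which 4 were called in each fit without 1 library. For dbR vs. dbdb 1 was called higher, Fxyd4 (adjusted p = 0.0433 from limma), a call lost without control replicate 2 (adjusted p = 0.0572), without dbdb replicate 1 (adjusted p = 0.0670), without dbdb replicate 2 (adjusted p = 0.124), without dbdb replicate 3 (adjusted p = 0.0672), without dbR replicate 1 (adjusted p = 0.0674), without dbR replicate 2 (adjusted p = 0.165) and without dbR replicate 3 (adjusted p = 0.103). The principal cell sum was 157, 133 and 157 FPKM in the control, 279, 188 and 237 in the dbdb and 210.2, 210.0 and 227 in the dbR libraries, and none was at 0. Aqp2 had the highest mean over the 9 libraries, while Aqp3 was above it in each control library. Of 4 thick ascending limb markers, 0 were called higher and 1 lower by limma in dbdb vs. control, where 2 had an unadjusted p under 0.05. The dbR group had 2 called higher and 1 lower against control, of which 1 was called in each fit without 1 library. Their sum was 560.0, 466 and 495 FPKM in the control, 386, 397 and 581 in the dbdb and 535, 507 and 466 in the dbR libraries, with Umod the highest on the mean of the 9 libraries and none at 0, and the groups overlapped. The sum of 3 inner medulla and papilla markers, of which 2 were tested, went the other way through 1 gene, Akr1b3. This sum was 44.1, 38.3 and 60.7 FPKM in the control and 19.4, 17.6 and 23.7 in the dbdb libraries. In the dbR libraries it was 17.8, 21.3 and 22.4, and Akr1b3 was the highest in each of the 9. Akr1b3 alone had means of 47.6, 20.0 and 20.1 FPKM in control, dbdb and dbR mice. The other 2 markers did not fall. Crabp1 had means of 0.126, 0.195 and 0.357 FPKM in the same order and was not called. Slc14a2 was at 0 in each control library and reached at most 0.119 FPKM elsewhere. The part of these segments in the Spp1 and Clu values was not tested.

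**Figure D3:**
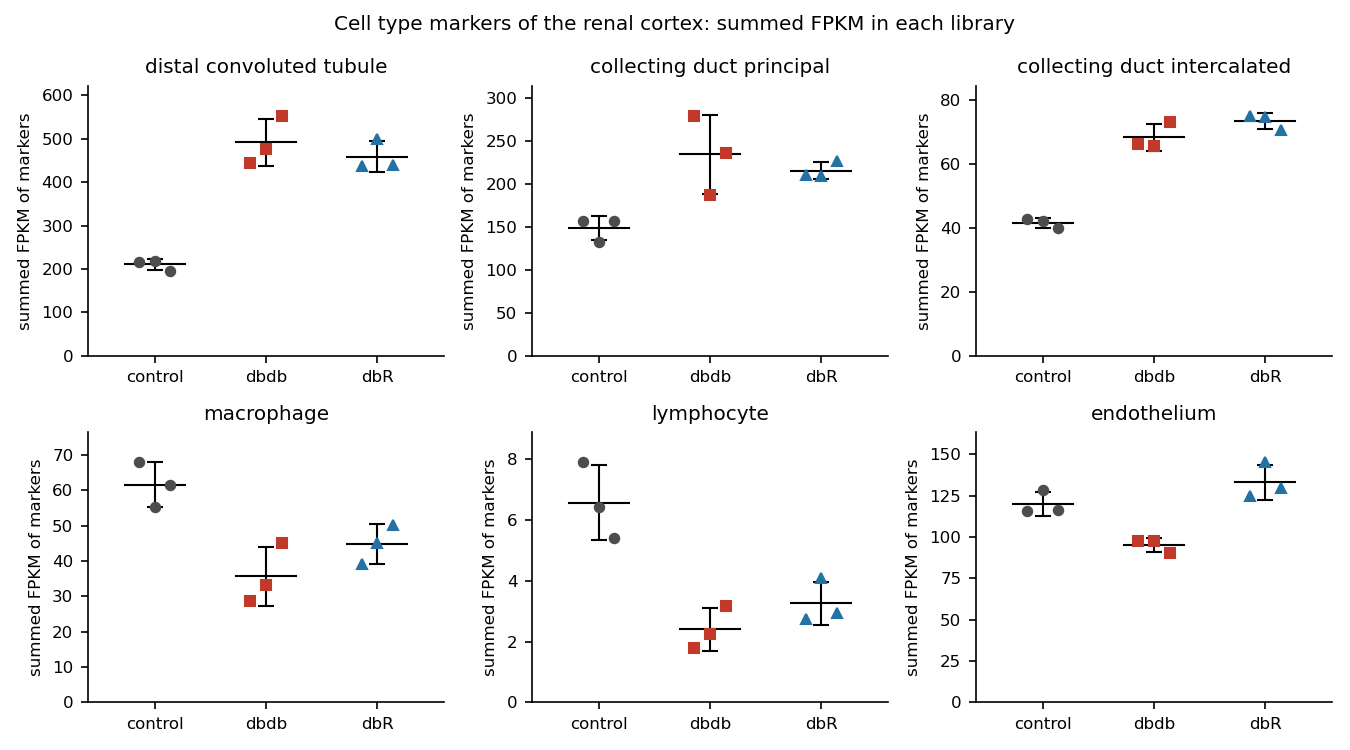
Summed FPKM of 6 lists of cell type markers in each library of the control, dbdb and dbR groups, with the mean and SD of 3 libraries as bars; each axis starts at 0. The distal convoluted tubule, principal and intercalated cell sums of dbdb and dbR libraries lie above the control sums, and the macrophage and lymphocyte sums lie below them.

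Lcn2 (ENSMUSG00000026822, chr2:32384633-32388252, minus strand) encodes lipocalin-2, also called neutrophil gelatinase-associated lipocalin, which binds bacterial iron carriers. Its level was 0.208, 0.269 and 0.553 FPKM in the control, 0.828, 0.805 and 1.36 in the dbdb and 1.59, 1.28 and 1.13 in the dbR libraries. Both diabetic groups were above the control group without overlap, and they overlapped with each other. An estimated 4, 5 and 11 fragments stood behind the control values, 14, 15 and 26 behind the dbdb values and 35, 26 and 20 behind the dbR values. Lcn2 was 2.55-fold higher in dbdb (log2 fold change 1.35 ± 0.29, adjusted p = 0.00822 from limma) and 3.38-fold higher in dbR than in control mice (1.76 ± 0.29, adjusted p = 0.00230 from limma). Both calls were made in the 21 alternatives that tested Lcn2. Its 95% interval in dbR vs. dbdb was -0.25 to 1.06. The genes most like Lcn2 were Spon1 (0.19), Klk1b22 (0.23) and Sult1a1 (0.24), beside 0.69 for Lcn2 against its own mean. Neutrophils store the same protein. Of 10 neutrophil markers 5 were tested, and 1, S100a8, was called higher against control, a share near that of the tested genes (26.4% in dbdb vs. control and 24.1% in the dbR group). It had 1.03, 0.883 and 0.828 FPKM in the control, 2.64, 1.20 and 2.19 in the dbdb and 1.63, 1.79 and 2.87 in the dbR libraries, and the dbdb group was higher than control with an adjusted p of 0.0259 from limma and the dbR group with 0.0200. The call in dbdb vs. control was lost without control replicate 2 (adjusted p = 0.0661), without control replicate 3 (adjusted p = 0.0753), without dbdb replicate 1 (adjusted p = 0.0827) and without dbdb replicate 3 (adjusted p = 0.0728), and that in dbR vs. control without control replicate 2 (adjusted p = 0.0546), without control replicate 3 (adjusted p = 0.0617) and without dbR replicate 3 (adjusted p = 0.0678). The other tested markers did not all go the same way. In dbdb vs. control 3 of the 5 had a log2 fold change above 0 and 2 below 0. Csf3r was 0.248, 0.312 and 0.254 FPKM in the control and 0.151, 0.123 and 0.229 in the dbdb libraries. These did not overlap, and Csf3r was not called. The summed neutrophil markers, with S100a9 the highest in each library, were 5.07, 3.08 and 4.05 FPKM in the control, 7.92, 4.57 and 7.29 in the dbdb and 5.74, 6.35 and 9.37 in the dbR libraries. The granule genes Mpo and Elane and the surface marker Ly6g were at 0 in each control library, and Mpo and Elane were at 0 in each dbdb library too. The part of neutrophils in the Lcn2 values was not tested.

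The keratins Krt8 and Krt18 are partners in the intermediate filaments of simple epithelia, and their genes lie 23698 bases apart on chromosome 15 of GRCm38 (ENSMUSG00000049382, chr15:101996698-102004482, minus strand for Krt8 and ENSMUSG00000023043, chr15:102028180-102032027, plus strand for Krt18). Krt18 was 6.71, 4.86 and 5.42 FPKM in the control, 9.03, 7.02 and 9.17 in the dbdb and 9.09, 9.10 and 9.76 in the dbR libraries. Each library of the diabetic groups was above each control library. Krt18 was 1.48-fold higher in dbdb (log2 fold change 0.56 ± 0.13, adjusted p = 0.0114 from limma) and 1.65-fold higher in dbR than in control mice (0.72 ± 0.13, adjusted p = 0.00371 from limma), in each of the 22 alternatives. Its log2 fold change in dbR vs. dbdb was 0.16 ± 0.13 (adjusted p = 0.581 from limma), and 0.033 without dbdb replicate 2. The genes most like Krt18 were Pard6g (0.066), Abca4 (0.078) and AA986860 (0.081), beside 0.31 for Krt18 against its own mean. The principal and intercalated cell sums given above were also higher in both diabetic groups than in control mice. The part of these cells in the Krt18 values was not tested.

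Krt8 was 55.0, 50.2 and 63.0 FPKM in the control, 62.2, 65.0 and 60.5 in the dbdb and 57.6, 60.6 and 62.0 in the dbR libraries, and the 3 groups overlapped. Its log2 fold change was 0.16 ± 0.079 in dbdb vs. control (adjusted p = 0.159 from limma), with a 95% interval of -0.014 to 0.34. The value was 0.087 without control replicate 2 and 0.25 without control replicate 3, the lowest and the highest control library. Without control replicate 3 the adjusted p from limma was 0.0297, and it was 0.0197 with quantile normalization and 0.00350 without mitochondrial genes, over a range of 0.00350 to 0.442. The dbR vs. control value without mitochondrial genes was 0.20 (adjusted p = 0.0390 from limma, range 0.0390 to 0.820), beside 0.11 ± 0.079 as deposited (adjusted p = 0.373 from limma). Without control replicate 2 it was 0.029, and without control replicate 3 it was 0.19. The ratio of Krt8 to Krt18 FPKM, which does not depend on the scaling of a library, was 8.19, 10.3 and 11.6 in the control, 6.89, 9.25 and 6.59 in the dbdb and 6.34, 6.66 and 6.35 in the dbR libraries. The dbR ratios were below the control ratios without overlap (6.45 ± 0.186 and 10.1 ± 1.74, mean ± SD, n = 3; two-sided exact permutation p = 0.10, the smallest that 3 against 3 libraries allow), and those of dbdb and control overlapped (exact permutation p = 0.20).

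Krt20 (ENSMUSG00000035775, chr11:99428403-99438150, minus strand) is a keratin of urothelium and gut that appears in badly injured tubules. Its level was 0.164, 0.0431 and 0.140 FPKM in the control, 0.175, 0.149 and 0.188 in the dbdb and 0.181, 0.137 and 0.247 in the dbR libraries, from an estimated 8, 2 and 7, 8, 7 and 9 and 10, 7 and 11 fragments. The groups overlapped and Krt20 was not called, with a 95% interval of -0.28 to 1.02 for the log2 fold change in dbdb vs. control. Its value of 0.37 was 0.10 without control replicate 2, the library of 2 fragments. The 95% interval in dbR vs. dbdb was -0.57 to 0.73, and its sign turned without dbR replicate 3 (0.076 and -0.067). Urothelium markers were measured beside it, and their part in the Krt20 values was not tested. Of 7 such markers 4 were tested and 0 were called by limma, with 0, 0 and 1 at an unadjusted p under 0.05 in dbdb vs. control, dbR vs. dbdb and dbR vs. control. Their sum was 4.58, 1.34 and 0.316 FPKM in the control, 0.674, 0.760 and 0.466 in the dbdb and 0.813, 0.158 and 0.613 in the dbR libraries, with control replicate 1 the highest. Upk1a had the highest mean over the 9 libraries. Psca and Upk1b were above it in control replicate 1 and in the control mean, and Psca also in dbdb replicate 1. Krt5 was at 0 in each dbdb and each dbR library. Of 51 keratin genes in the files 10 were tested, the 3 markers among them, and 3 were called higher and 0 lower in dbdb vs. control, a share near the 26.4% of the tested genes. Besides Krt18 these were Krt7 (log2 fold change 0.83 ± 0.11, adjusted p = 0.000679 from limma) and Krt80 (1.12 ± 0.14, adjusted p = 0.000349 from limma). Krt19 was 0.646 ± 0.354 FPKM in control and 0.361 ± 0.0952 in dbdb mice and was not called (adjusted p = 0.219 from limma).

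Sox9 (ENSMUSG00000000567, chr11:112782224-112787760, plus strand) encodes a transcription factor of nephron development that is switched on again in tubular cells under repair. Its level was 0.301, 0.505 and 0.182 FPKM in the control, 0.255, 0.331 and 0.387 in the dbdb and 0.328, 0.820 and 0.572 in the dbR libraries. The highest value was that of dbR replicate 2, and the 3 groups overlapped. Sox9 was not called in a comparison, with log2 fold changes of 0.61 ± 0.34 in dbR vs. dbdb (adjusted p = 0.389 from limma) and 0.65 ± 0.34 in dbR vs. control (adjusted p = 0.194 from limma). Without dbR replicate 2 these were 0.35 and 0.39, and without control replicate 3 the dbR vs. control value was 0.38. Its 95% interval in dbdb vs. control was -0.71 to 0.80, and the sign turned without control replicate 3 (-0.23) or dbdb replicate 3 (-0.063). Of 19 Sox genes in the files 10 were tested. Of these 1 was called in dbdb vs. control, Sox12, which was higher by 0.71 ± 0.12 on the log2 scale (adjusted p = 0.00219 from limma).

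Single transcripts of the markers were tested where their levels allowed it. The 10 genes had 34 transcripts in the files, between 1 and 8 per gene, and 19 had a mean FPKM of at least 0.1. In dbdb vs. control 7 of the 19 were called by limma, each of them higher, where 9.57% of 29362 transcripts were called. They were 4 transcripts of Spp1 and 1 each of Clu, Lcn2 and Krt18. For dbR vs. control 7 were called as well (8.5% of all transcripts). Between dbR and dbdb mice 0 were called by limma (0.017% of all transcripts), with 3 at an unadjusted p under 0.05. The Cd44 reads were divided between 2 main transcripts. That of 2848 bases had 0.536, 0.660 and 0.487 FPKM in the control and 9.49e-06, 0.246 and 0.246 in the dbdb libraries, and neither it (adjusted p = 0.108 from limma) nor that of 5045 bases (adjusted p = 0.299 from limma) was called in dbdb vs. control in the fit over transcripts. Among the most abundant transcripts of each gene alone, with other genes in the adjustment and the variance trend, that of 2848 bases had the same log2 fold change of -1.52 and was called (adjusted p = 0.0401 from limma). A Havcr1 transcript of 1982 bases was the 1 of 4 that could be tested, and it was not called (adjusted p = 0.448 from limma). Lcn2 kept its difference in its main transcript of 915 bases, with a log2 fold change of 1.44 ± 0.27 in dbdb vs. control (adjusted p = 0.0135 from limma).

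Other genes known from injured tubules were read beside the 10 markers. Their counts of calls, and those of the lists that follow, stand beside the 26.4%, 0.743% and 24.1% of tested genes called in dbdb vs. control, dbR vs. dbdb and dbR vs. control. These shares are at an adjusted p under 0.05. They are no background for the counts at an unadjusted p, for which no share is given. Of 19 other injury genes that act in or on the cell, 4 were called higher and 1 lower in dbdb vs. control. For dbR vs. dbdb 0 were called, with 6 at an unadjusted p under 0.05 from limma. In dbR vs. control 9 were called higher and 1 lower. The 5 of 19 called in dbdb vs. control are a share near that of the tested genes. The 10 of 19 called in dbR vs. control are a larger share than the 24.1% of tested genes, and this difference was not tested. The list was chosen with earlier results of these data known, so the larger share is not read as a result. Their median log2 fold changes were 0.13, 0.013 and 0.40. The 5 called in dbdb vs. control were Tagln2, an actin-binding protein (0.96 ± 0.073, adjusted p = 3.00e-05 from limma), Krt7, Lgals3, which encodes galectin-3, Myc and S100a11, and each was called in each fit without 1 library. Of the 10 calls in dbR vs. control 5 were made in each such fit. S100a11, the 1 called lower in dbdb vs. control, lost that call without mitochondrial genes. Of 16 that encode secreted factors 15 were tested, with 3 higher and 3 lower in dbdb vs. control, 0 in dbR vs. dbdb (9 at an unadjusted p under 0.05 from limma), and 4 higher and 4 lower in dbR vs. control. Their medians were 0.0070, 0.18 and 0.16. C3, complement component C3, was 5.56 ± 1.66 FPKM in control mice, 26.5 ± 5.30 in the dbdb group and 45.4 ± 4.99 in the dbR group (mean ± SD, n = 3), a log2 fold change of 2.25 ± 0.20 in dbdb vs. control (adjusted p = 6.63e-05 from limma). Gdf15, a stress-induced cytokine, was 1.20 ± 0.377 FPKM in control mice, 2.83 ± 0.980 in the dbdb group and 1.26 ± 0.188 in the dbR group and was higher in dbdb than in control mice (adjusted p = 0.0105 from limma), a call lost for its most abundant transcript. The macrophage growth factor Il34 fell by 1.86 ± 0.30 on the log2 scale in dbdb vs. control (adjusted p = 0.00162 from limma). The chemokine Ccl2 was lower in dbdb than in control mice (adjusted p = 0.0193 from limma), a call lost without control replicate 3 (adjusted p = 0.0605) and without dbdb replicate 3 (adjusted p = 0.0596). Of the 6 calls in dbdb vs. control 4 were made in each fit without 1 library, and so were 4 of the 8 in dbR vs. control.

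Receptors and partners of the markers did not follow them in 1 direction. Of 16 tested, 2 were called higher and 5 lower in dbdb vs. control, 0 in dbR vs. dbdb (3 at an unadjusted p under 0.05 from limma) and 1 lower in dbR vs. control, with medians of -0.088, 0.056 and -0.095. Itgb6, the integrin subunit β6 of epithelia, was 37.3 ± 1.79 FPKM in control mice, 19.8 ± 2.46 in the dbdb group and 16.3 ± 0.933 in the dbR group (mean ± SD, n = 3). It fell by 0.91 ± 0.091 on the log2 scale in dbdb vs. control (adjusted p = 0.000130 from limma) and by 1.19 ± 0.091 in dbR vs. control (adjusted p = 3.64e-05 from limma). Of the 7 calls in dbdb vs. control, 2 were made in each fit without 1 library, those of Itgb6 and Itgb1. Itgb1 lost its call under quantile normalization and without mitochondrial genes.

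NF-κB is a family of transcription factors that acts on several of the markers, Lcn2 and Vcam1 among them. Of 19 of its components and feedback genes, 3 were called higher and 3 lower in dbdb vs. control, 0 in dbR vs. dbdb (5 at an unadjusted p under 0.05 from limma), and 4 higher and 1 lower in dbR vs. control, with medians of 0.16, -0.040 and 0.11. Tnf was 0.266 ± 0.0338 FPKM in control mice, 0.0546 ± 0.0475 in the dbdb group and 0.185 ± 0.0304 in the dbR group. Its dbdb values lay between 0 and 0.0865 FPKM, each under the 0.1 FPKM that testing required on average. The decrease of Tnf in dbdb vs. control (log2 fold change -1.29 ± 0.29, adjusted p = 0.00889 from limma) therefore rests on values near the floor. It was the 1 call of the 6 that was made in each fit without 1 library, and it was lost for the most abundant transcript of Tnf. Of the 5 calls in dbR vs. control 4 were made in each fit without 1 library. Nfkbia, which encodes the inhibitor IκBα, was higher in dbR than in control mice by 0.85 ± 0.19 on the log2 scale (adjusted p = 0.0110 from limma).

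Genes of the differentiated proximal tubule, which injured cells are known to lose, went both ways beside the markers. Of 21 such genes, 4 were called higher and 3 lower in dbdb vs. control, 0 in dbR vs. dbdb (4 at an unadjusted p under 0.05 from limma), and 5 higher and 3 lower in dbR vs. control, with medians of 0.16, 0.052 and 0.13. Pck1, the enzyme that commits carbon to gluconeogenesis, was higher by 1.41 ± 0.15 on the log2 scale in dbdb vs. control (adjusted p = 0.000207 from limma). Keg1 fell by 1.41 ± 0.13 on the log2 scale (adjusted p = 7.33e-05 from limma), and the fatty acid transporter Slc27a2 and the organic anion transporter Slc22a6 were lower too. Of the 7 calls in dbdb vs. control 5 were made in each fit without 1 library, and so were 6 of the 8 in dbR vs. control. The summed level of the 7 proximal tubule markers was 6046, 5775 and 5564 FPKM in the control, 5238, 5378 and 4482.5 in the dbdb and 5442, 5611 and 5531 in the dbR libraries. Each dbdb sum was below each sum of the other groups, and the control and dbR sums overlapped. Of the 7, 2 were called higher and 1 lower in dbdb vs. control, and 2 of these 3 calls were made in each fit without 1 library. The sums are on the deposited scale and were not rescaled without mitochondrial genes.

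Promoter sequences from RefSeq (GRCm38.p6, 250 bases before to 50 after the start) were matched by symbol for 7 of the 10 markers, without Vcam1, Clu and Sox9. Those of Spp1 (chr5:104434861-104435160, plus strand), Lcn2 (chr2:32387690-32387989, minus strand) and Krt18 (chr15:102027966-102028265, plus strand) are shown because these genes were called higher in both diabetic groups. For Spp1, which has a pair of promoters in the table, the upstream one is given. Each window lies around the start that RefSeq gives, which for Lcn2 and Krt18 falls inside the gene as GENCODE draws it. Both strands were searched for 8 motifs, whose matches may overlap. They were GGNNNTTCC for NF-κB, TGANTCA for AP-1, TTCNNNGAA for STAT factors, TATAAA for the TATA box, CCAAT for the factor NF-Y, CACGTG for the E-box, GGGCGG for the GC box and AGGTCA for nuclear receptors. Capitals mark the matches.
Spp1: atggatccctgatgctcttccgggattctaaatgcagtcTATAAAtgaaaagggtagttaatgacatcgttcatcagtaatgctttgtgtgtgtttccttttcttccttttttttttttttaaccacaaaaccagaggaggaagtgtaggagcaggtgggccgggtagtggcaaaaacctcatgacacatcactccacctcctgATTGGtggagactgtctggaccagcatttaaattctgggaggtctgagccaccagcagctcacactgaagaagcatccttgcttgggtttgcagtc
Lcn2: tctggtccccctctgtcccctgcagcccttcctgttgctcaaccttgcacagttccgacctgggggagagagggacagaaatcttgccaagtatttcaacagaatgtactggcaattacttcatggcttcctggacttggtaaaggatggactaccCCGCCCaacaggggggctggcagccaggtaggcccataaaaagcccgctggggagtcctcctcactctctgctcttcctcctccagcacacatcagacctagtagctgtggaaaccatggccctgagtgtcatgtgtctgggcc
Krt18: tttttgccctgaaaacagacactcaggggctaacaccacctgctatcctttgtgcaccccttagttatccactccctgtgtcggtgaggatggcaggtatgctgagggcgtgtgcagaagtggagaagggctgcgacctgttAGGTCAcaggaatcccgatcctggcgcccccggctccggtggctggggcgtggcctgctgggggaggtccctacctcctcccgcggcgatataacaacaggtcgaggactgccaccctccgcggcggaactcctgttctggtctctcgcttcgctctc
With the start as 0, the Spp1 window held TATAAA at -211 and CCAAT on the minus strand at -46. The Lcn2 window held GGGCGG on the minus strand at -94, and the Krt18 window held AGGTCA at -108. Of 32851 promoters of the same length, 13.6% held TATAAA, 37.4% CCAAT, 35.7% GGGCGG and 16.3% AGGTCA. The other motifs were held by 18.5% (GGNNNTTCC), 7.81% (TGANTCA), 8.3% (TTCNNNGAA) and 7.15% (CACGTG) and had no match in the 3 windows. A match is a description of letters, and binding was not measured.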

How the data were processed

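Total RNA of the renal cortex was measured in 9 mice, grouped by the sample labels. Per the submitters' processing notes and the methods, the authors aligned paired reads to GRCm38.p2 with TopHat2 2.0.9, and Cufflinks 2.1.1 gave the deposited FPKM of each transcript. FPKM is corrected for transcript length and mapped fragments, and its division among the transcripts of a gene was made by Cufflinks. Only mRNA values were used here. They held 50660 transcripts of 21950 genes and were summed per gene, without further scaling.

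For 14537 genes that averaged 0.1 FPKM or more, limma 3.58.1 (R 4.3.3) fitted log2(FPKM + 0.1) with the 3 groups in a single model and a variance trend. Tests were two-sided, and Benjamini-Hochberg adjustment covered the genes tested in each comparison. Calls had an adjusted p under 0.05. Transcripts were fitted in the same way. The ratio of Krt8 to Krt18 was compared with exact permutation tests. Fragments were estimated from the steps of low FPKM values, of which between 89.85% and 92.87% per library lay within 0.1 of a whole number. The summed mRNA FPKM was 594838 to 730057 per library, and the mitochondrial genome held 26.9% to 32.8% of it.

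The members and lists were chosen with earlier results of these data known. Genes named beside the markers are called genes of the lists, up to 6 per list and comparison by absolute log2 fold change, the most abundant or near-absent genes of marker lists, genes of the Krt, Tim and Sox families, and the 3 genes most like each called marker. Results of some genes under this rule are left out. Gene coordinates are those of GENCODE for GRCm38 and promoters those of RefSeq. Alternatives were other pseudocounts (1 and 0.01), filters, scalings and variance models, the replicate number as a block, the 6 libraries of a comparison alone, the most abundant transcript of each gene, and each library left out. Fragments estimated per mapped fragments of the library were added after the data were seen. Other calculations used python 3.11.15, numpy 2.4.6, pandas 2.3.3, scipy 1.17.1 and matplotlib 3.10.9.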

Additional observations from a re-analysis of the deposited data

How the results depend on the processing

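Of 22 alternatives, 21 were planned and 1, fragments scaled to depth in place of FPKM, was chosen after seeing the data. Spp1, Clu, Krt18 and Lcn2 were called higher in both diabetic groups against control in each alternative that tested them, as was the lower Cd44 in dbdb vs. control, and no marker was called in dbR vs. dbdb in an alternative. With a mean FPKM of at least 1, 5 markers were left to test and 3 were called against control in the dbdb and 3 in the dbR group, beside 6 and 5 of 10. Without 1 library, 5 to 6 markers were called in dbdb vs. control, 0 in dbR vs. dbdb and 4 to 5 in dbR vs. control. Havcr1 was called lower than in control mice in 14 of 21 alternatives for the dbdb and in 11 of 21 for the dbR group.

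The number of tested genes called in dbR vs. dbdb (108) depended on the setting. It was 31 with no filter, 166 with a mean FPKM of at least 1, 203 with scaling to the 75th percentile, 234 with quantile normalization, 36 with the 6 libraries alone, 18 with no trend of the variance, 280 with array weights, 49 with the most abundant transcript and 533 with fragments scaled to depth, and between 2 and 141 without 1 library. The cause was not tested.

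With the replicate number as a replicate block, 6, 0 and 5 markers were called in dbdb vs. control, dbR vs. dbdb and dbR vs. control, and 3345, 23 and 3030 genes. Libraries of the same number did not deviate together (r of their deviations from the group means between -0.175 and 0.0615), and the numbers were not taken as pairs.

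Signs turned for 5 markers that were not called in the comparison, and the cause was not tested. In dbdb vs. control, Vcam1 (0.0084) was -0.079 with quantile normalization, -0.071 with array weights, -0.29 for the most abundant transcript, -0.20 in fragments scaled to depth, -0.12 to 0.13 without 1 library (under 0 without control replicate 3 or dbdb replicate 3). Sox9 (0.042) was -0.015 with array weights, -0.23 to 0.32 without 1 library (under 0 without the same libraries). In dbR vs. dbdb, Havcr1 (0.022) was -0.0023 with a pseudocount of 1, -0.038 with quantile normalization, -0.023 without mitochondrial genes, -0.21 to 0.22 without 1 library (under 0 without dbdb replicate 2 or dbR replicate 3). Clu (0.043) was -0.021 without mitochondrial genes and -0.022 to 0.11 without 1 library (under 0 without dbR replicate 2), and Krt20 (0.076) was -0.067 to 0.21 without 1 library (under 0 without dbR replicate 3).

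Each group held 3 mice, and the estimated 2 to 37 fragments behind Krt20, Havcr1 and Lcn2 limit what can be said of them.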
